A study of Mus musculus with 9 samples.

Results

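Of 3243 features with at least 90 counts over 9 uterine libraries, 109 (3.36%) had all 3 libraries of injured mice on one side of all 6 other libraries, 43 of them higher and 66 lower in injury. These features were selected on those same values. Counts were divided by the library's counts on the 3243 features times its TMM factor (edgeR's trimmed mean of M values), which gave counts scaled to a common library size (CPM), and the injury mean had to lie at least 1.3-fold from both other means. A few named genes and the Hox and Col genes were left out, and with those names kept 113 features passed. Among the features lower in injury was Pgr, the progesterone receptor, and among those higher were Ccna2, a cyclin of S phase and mitosis, and Angpt2, a ligand of the endothelial receptor Tek.

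The uteri came from wild-type C57BL female mice of 8 weeks, with 3 mice in each group, and all were taken on day 7. Sham mice had a sham operation. In injured mice the endometrium was damaged by 10 passes of a 27 gauge needle through the cavity, after which 50 μL of PBS was given, and CRC mice had the same damage but received 50 μL of a suspension of wild-type CRCs, which are conditionally reprogrammed endometrial epithelial cells expanded in culture. The comparison asks which transcripts stood apart in injured uteri and not in uteri that were unharmed or had received cells. The endometrium consists of a luminal and glandular epithelium over a vascular stroma, surrounded by smooth muscle. Its growth and repair are directed by oestrogen and progesterone through receptors in both layers, and repair after damage draws on proliferation, vessel growth and the remodelling of matrix.

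Features held 325384, 317754 and 327883 counts in the sham libraries, 290684, 280886 and 282937 in the injury libraries and 288619, 289964 and 290833 in the CRC libraries. These were 0.776% to 0.898% of a library's records, and 30853063 to 35560004 records per library were assigned to no feature. One count was worth between 3.33 and 4.01 CPM, so a member with few counts was measured coarsely. The sources used here do not give the strand setting of the counting. Each value below is therefore the count on the feature of that name, and which strand it came from cannot be told, also where no feature lies opposite. Xist held 77 counts over the 9 libraries and Tsix opposite it 44560, Malat1 held 115 and Gm37376 opposite it 78001, and Tagln held 159 and Gm48529 opposite it 130075, and the cause was not tested. Order and overlap of groups refer to scaled levels in CPM unless counts are named, and the counts printed can differ from them in this. In bulk tissue, fewer cells of a type and less RNA per cell cannot be told apart either.

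The sham libraries were the least alike, at mean distances of 42.3 to 48.6 from each other in log2 CPM, beside 32.4 to 34.3 among injury and 30.1 to 30.6 among CRC libraries. Library sham 1 lay nearer to the injury libraries (35.5) than to the other sham libraries (44.8), and so did sham 3 (40.6 and 42.3). The CRC libraries stood apart, at 55.6 to 56.4 from sham and 47.0 to 47.8 from injury, whereas injury lay at 41.1 to 45.1 from sham. Groups follow the sample labels, which were not tested against other evidence. Ambiguous records numbered 28622 and 24851 in sham 2 and sham 3 and 1751 to 6470 in the rest. The part of these differences in the choice of members was not tested. Runs of the rule with libraries left out used a lower minimum total count. With fewer libraries the rule is also easier to meet, so their larger numbers cannot show that part. With sham 1 left out the rule found 78 features higher and 98 lower in injury, and with sham 2 and sham 3 left out it found 99 and 135. Leaving out injury library 1, 2 or 3 gave 89, 91 and 87 higher and 116, 109 and 116 lower, and leaving out CRC 3 gave 65 higher.

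Injury was the group with the fewest such features. The same rule with sham in the place of injury found 228 (7.03%), 117 higher and 111 lower, and with CRC in its place 649 (20.0%), 310 higher and 339 lower. Across all 3722 features tested with edgeR's quasi-likelihood test at a Benjamini-Hochberg adjusted p under 0.05, 16 (0.430%) were called between injury and sham, 481 (12.9%) between injury and CRC and 745 (20.0%) between CRC and sham. The count of 16 changed with single libraries left out, and it was 154 without sham 1, 3 without sham 3, 8, 3 and 4 without injury 1, 2 and 3, and 10 without CRC 3. All 109 members were tested by edgeR. None was called between injury and sham by edgeR, where 70 had an unadjusted p under 0.05, beside 468 of all 3722 features, and DESeq2 called 5 of the 49 members to which it gave an adjusted p, beside 1.40% of 1501 features. Between injury and CRC edgeR called 56, and DESeq2 called 40, beside 7.27% of the 5106 features to which it gave an adjusted p. Without sham 1 edgeR called 18 members between injury and sham, without sham 2 it called 2, and without injury 1 or CRC 1 it called 1. Without CRC 1 it called 36 members between injury and CRC, and without CRC 3 it called 35. The p-values measure the spread between these mice, 3 in each group. These contrasts chose the members, so the counts describe the choice and carry no further weight.

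**Figure D1:**
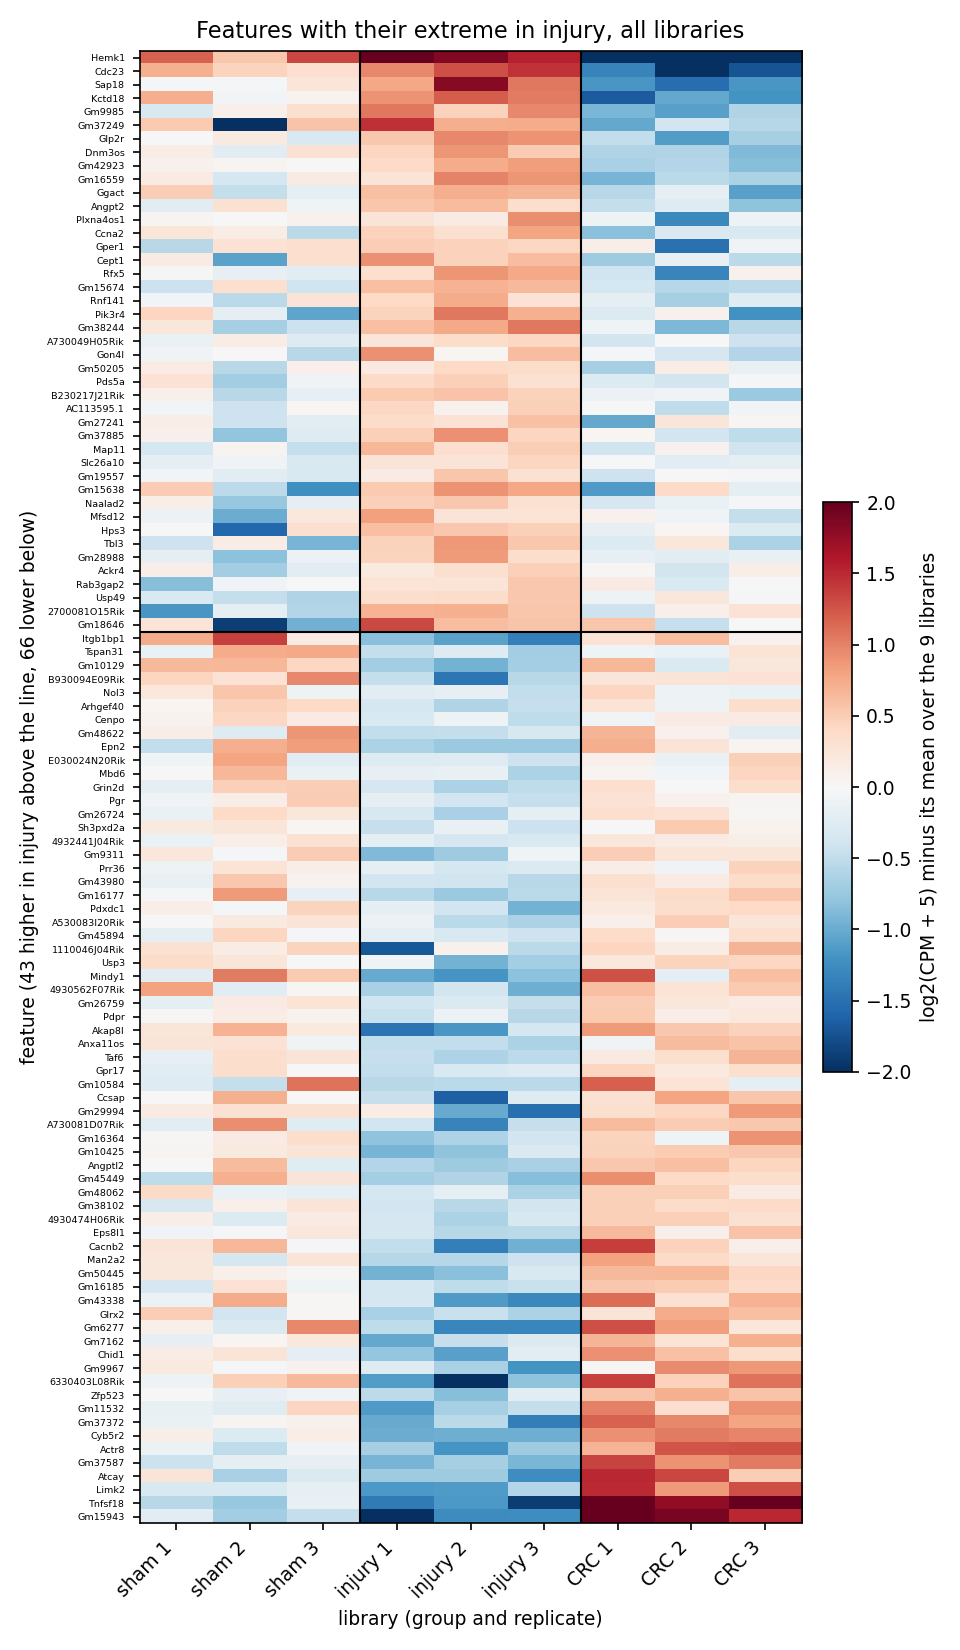
Level of the 109 features (rows) in the 9 libraries (columns), as log2(CPM + 5) minus the mean over the 9 libraries, with rows ordered by the ratio of the CRC mean to the sham mean within each direction. The 43 features above the line are highest in the 3 injury libraries and the 66 below it lowest, and the CRC libraries differ from the sham libraries mainly at the top of the upper block and the bottom of the lower block.

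Sham and CRC libraries overlapped in 31 of the 43 members higher in injury and in 49 of the 66 lower. Among the 43 higher in injury, the CRC mean was below the sham mean in 28, against 48.1% of all features with 90 or more counts, and the CRC libraries lay wholly below the sham libraries in 11, against 18.2% of those features, and wholly above in 1, against 19.0%. Among the 66 lower in injury, the CRC mean was above the sham mean in 53, against 51.9% of all features, and the CRC libraries lay wholly above in 17, against 19.0% of all features, and wholly below in 0, against 18.2%. The rule used these sham and CRC values, so the shares in both sets describe the choice and carry no further weight. The fold between the injury mean and the nearer of the other means ran from 1.31 to 2.55 with a median of 1.65 in the first set, where 5 reached 2-fold, and from 1.31 to 4.03 with a median of 1.69 in the second, where 17 did. The nearer group was sham in 28 and 53 of them.

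**Figure D2:**
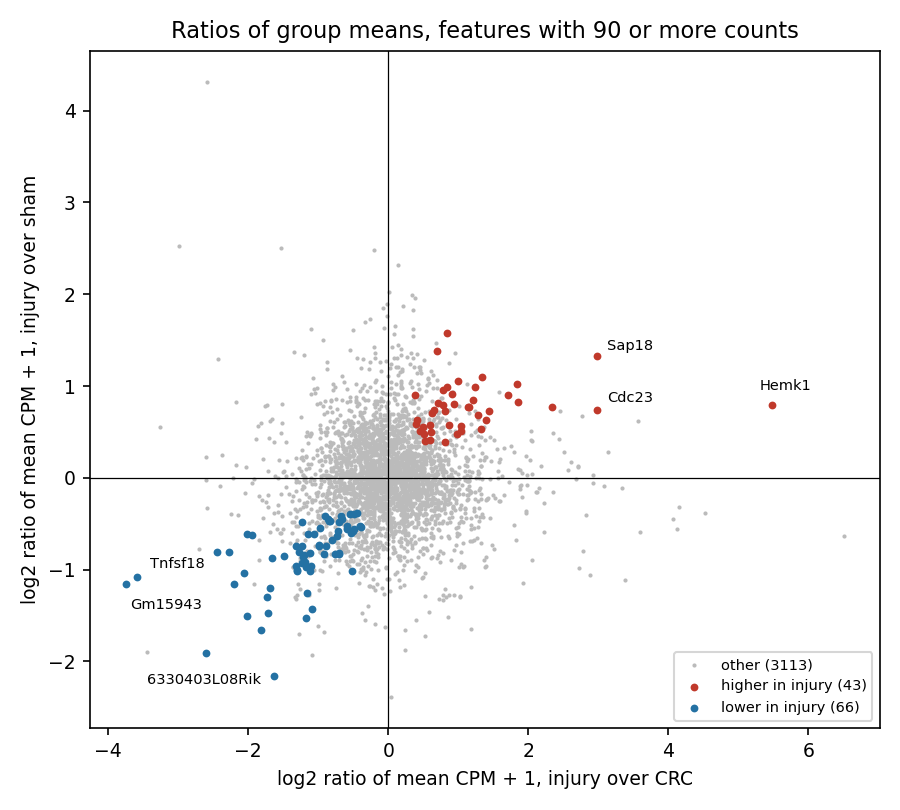
Ratio of the injury mean to the CRC mean (x axis) and to the sham mean (y axis), both as log2 of mean CPM + 1, for the features with 90 or more counts, with the 43 members higher in injury in red and the 66 lower in blue. The members fill the upper right and lower left corners by construction, and Hemk1, Cdc23, Tnfsf18 and Gm15943 lie much farther from CRC than from sham.

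Several members encode receptors and ligands. Pgr held 67, 67 and 90 counts for sham, 57, 49 and 46 for injury and 90, 77 and 76 for CRC. The injury libraries were the lowest, and sham and CRC overlapped. Mean levels were 283 ± 58.9 CPM in sham, 192 ± 20.0 in injury and 271 ± 25.3 in CRC (SD, n = 3), so that sham was 1.47-fold and CRC 1.41-fold above injury. Between CRC and sham the log2 difference was -0.082 ± 0.23 (SE) with an adjusted p of 0.848 in edgeR's quasi-likelihood test, Benjamini-Hochberg adjusted. The rule required both groups to lie above injury, so this contrast is affected by the choice, and the p does not show equal levels. Gper1, a G protein-coupled receptor that binds oestrogen, held 16, 26 and 28 counts for sham, 32, 31 and 30 for injury and 28, 8 and 24 for CRC. Its injury libraries were closely alike and lay just above the highest of the others.

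Angpt2 was higher and Angptl2 lower in injury. Angpt2, which is known to loosen vessel walls during remodelling, held 57, 71 and 56 counts for sham, 91, 95 and 77 for injury and 49, 57 and 39 for CRC. In CPM the injury libraries were highest and the CRC libraries lowest without overlap, while the counts of sham and CRC overlapped, with means of 233 ± 45.6, 332 ± 34.5 and 162 ± 30.4 CPM in sham, injury and CRC (SD, n = 3). Its difference between CRC and sham was not called (log2 -0.54 ± 0.25, adjusted p = 0.124, edgeR's quasi-likelihood test, Benjamini-Hochberg adjusted). Angptl2, a secreted angiopoietin-like protein, held 54, 74 and 41 counts for sham, 33, 30 and 31 for injury and 83, 86 and 77 for CRC. Here injury was lowest, and sham and CRC overlapped in CPM but not in counts.

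Tnfsf18, the ligand of GITR, a receptor on T cells, held 19, 14 and 23 counts for sham, 9, 11 and 6 for injury and 134, 105 and 125 for CRC. The 3 groups did not overlap, and the CRC mean of 406 ± 48.5 CPM was 5.76-fold the sham mean of 70.4 ± 16.8 (SD, n = 3). Ackr4, a scavenging receptor for chemokines, held 40, 19 and 28 counts for sham, 39, 42 and 47 for injury and 39, 29 and 42 for CRC, and only its scaled values set injury apart, since the raw counts overlapped. Rfx5, a transcription factor of the MHC class II genes, held 12, 9 and 9 counts for sham, 14, 21 and 19 for injury and 9, 4 and 13 for CRC. Its injury libraries stood above the rest by as little as 1 count.

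Ccna2, from the proliferation list, held 26, 21 and 13 counts for sham, 28, 25 and 35 for injury and 12, 18 and 18 for CRC. Its means were 75.0 ± 21.6, 111 ± 20.0 and 53.5 ± 11.7 CPM in sham, injury and CRC (SD, n = 3), with overlap between sham and CRC. Cdc23, a subunit of the anaphase-promoting complex, held 204, 147 and 141 counts for sham, 224, 278 and 309 for injury and 50, 28 and 38 for CRC. It was highest in injury and far lower in CRC than in either other group, the injury mean being 1.67-fold the sham mean and 7.94-fold the CRC mean. Pds5a, a regulator of cohesin, was a further member higher in injury, with 174, 76 and 122 counts for sham, 172, 182 and 160 for injury and 123, 114 and 144 for CRC. The centromere protein gene Cenpo was lower in injury, with 73, 81 and 70 counts for sham, 52, 59 and 44 for injury and 70, 81 and 81 for CRC.

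The proliferation list held 7 genes, of which 3 had enough counts for edgeR's filter and 1, Ccna2, was a member. Ccnd1 held 113, 67 and 74 counts for sham, 93, 97 and 108 for injury and 113, 105 and 81 for CRC, with all groups overlapping. Mki67 held 64 counts over the 9 libraries, Cdk1 4, Ccnb1 2 and Top2a 1, and these were too few to compare. Of the 3 tested by edgeR, 0 were called in each contrast, with 1 at an unadjusted p under 0.05 between injury and CRC and 0 in the others. DESeq2 called 0 of the 2 to which it gave an adjusted p between injury and sham, and 0 of 4 in each other contrast.

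**Figure D3:**
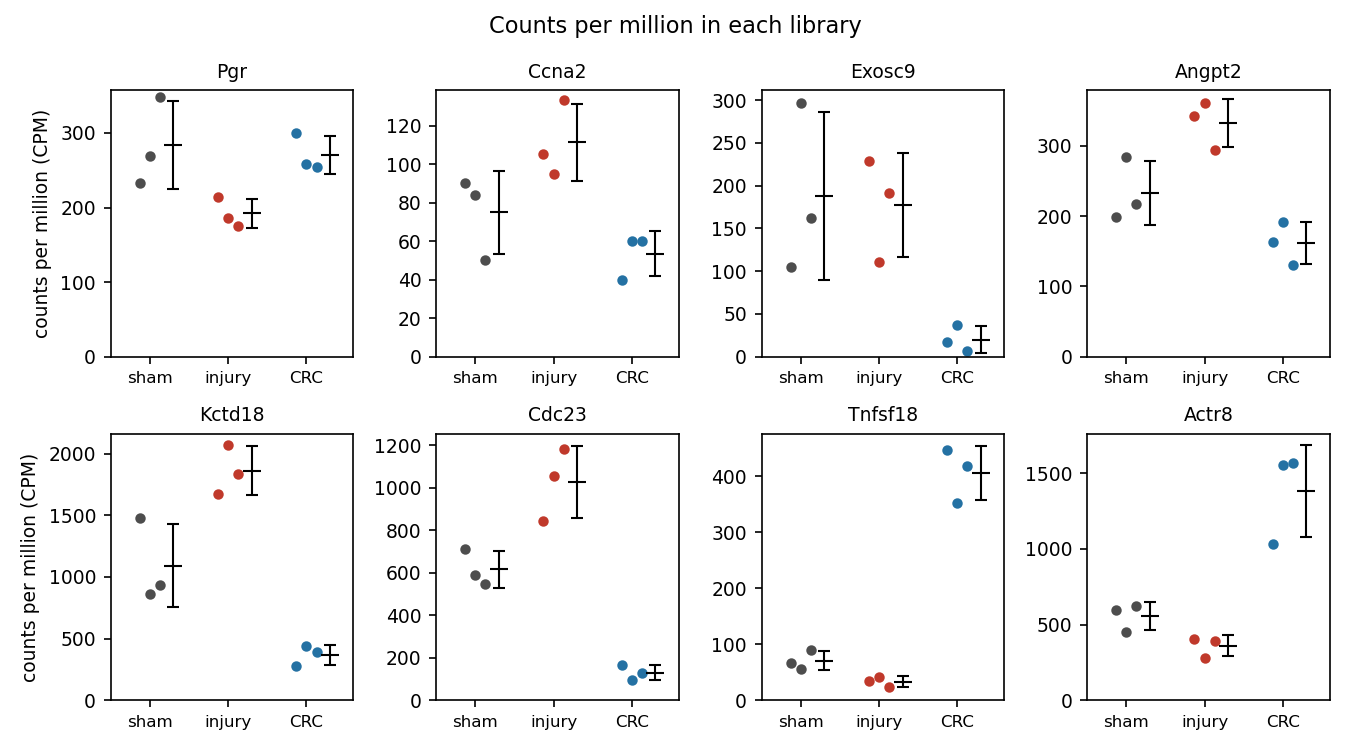
CPM of 8 features in each library (points), with the mean and SD of the 3 libraries of a group beside them, on axes that start at 0. Pgr, Tnfsf18 and Actr8 are lowest in injury, Ccna2, Angpt2, Kctd18 and Cdc23 are highest in injury, and Exosc9, which is opposite Ccna2 and not a member, overlaps between sham and injury and is low in CRC.

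Further members lower in injury were Itgb1bp1, Limk2, Sh3pxd2a and Cacnb2. Itgb1bp1, which binds the tail of β1 integrin, held 19, 26 and 11 counts for sham, 5, 4 and 3 for injury and 14, 18 and 12 for CRC. Limk2, a kinase of the actin regulator cofilin, held 7, 6 and 7 counts for sham, 3, 3 and 5 for injury and 29, 18 and 25 for CRC. Both were lowest in injury, and Limk2 was separated between all 3 groups. Sh3pxd2a, a scaffold of podosomes, held 21, 19 and 17 counts for sham, 12, 15 and 12 for injury and 19, 28 and 20 for CRC. Cacnb2, a subunit of voltage-gated calcium channels, held 30, 35 and 22 counts for sham, 16, 8 and 11 for injury and 70, 36 and 28 for CRC, with overlap of the last group and sham.

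By the size of the fold the members included many with few counts. The 10 members highest in injury by the fold to the nearer mean were Sap18, Gm38244, Gm37249, Gm15638, Pik3r4, Glp2r, Gm37885, Rfx5, Tbl3 and Gm18646. Sap18, a protein of the Sin3 deacetylase and splicing complexes, held 8, 7 and 9 counts for sham, 14, 30 and 17 for injury and 3, 2 and 3 for CRC. Injury was highest but spread widely, at 77.2 ± 32.5 CPM (SD, n = 3), 2.55-fold the sham mean. Pik3r4, the regulatory subunit of the class III phosphoinositide kinase, held 15, 8 and 4 counts for sham, 14, 22 and 17 for injury and 9, 12 and 4 for CRC. Glp2r, the receptor of glucagon-like peptide 2, held 10, 10 and 7 for sham, 14, 19 and 18 for injury and 7, 4 and 6 for CRC. Tbl3, a factor of ribosome assembly, was better covered, with 26, 34 and 16 counts for sham, 45, 60 and 47 for injury and 30, 43 and 23 for CRC, and injury was 2.00-fold the sham mean and 1.80-fold the CRC mean.

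In the other direction the 10 largest folds belonged to 6330403L08Rik, Mindy1, Itgb1bp1, Gm6277, Akap8l, Cacnb2, Gm10129, Gm43338, Cyb5r2 and Gm15943. The antisense feature 6330403L08Rik, which overlaps the platelet-derived growth factor gene Pdgfa, held 8, 11 and 13 counts for sham, 3, 1 and 4 for injury and 26, 13 and 21 for CRC. Its sham mean was 4.03-fold and its CRC mean 6.60-fold the injury mean, on 8 counts in injury altogether. Mindy1, a deubiquitinase, held 14, 31 and 22 counts for sham, 7, 6 and 8 for injury and 44, 15 and 27 for CRC. Cyb5r2, a cytochrome b5 reductase, held 11, 7 and 10 counts in sham, 4 in each injury library and 21, 23 and 22 in CRC. The groups of Cyb5r2 were all separate, whereas sham and CRC overlapped for Mindy1.

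Other members were named for their depth. The 5 best covered of those higher in injury were Slc26a10, Kctd18, Dnm3os, Gm16559 and Gm15674. Slc26a10, of the SLC26 family of anion transporters, held 273, 257 and 226 counts for sham, 345, 340 and 383 for injury and 326, 278 and 281 for CRC. Scaled to library size, injury was highest at 1351 ± 97.0 CPM, with sham at 951 ± 78.2 and CRC at 986 ± 86.9 (SD, n = 3), which overlapped. The antisense feature Gm15674 held 133, 196 and 123 counts for sham, 253, 268 and 258 for injury and 147, 125 and 129 for CRC. Its injury libraries were tightly grouped and well above the others.

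The 5 best covered of those lower in injury were not annotated as protein coding, namely 4932441J04Rik, Gm16185, Gm43980, Gm26759 and Gm38102. For 4932441J04Rik the counts were 784, 814 and 947 for sham, 693, 623 and 634 for injury and 1051, 998 and 967 for CRC. Gm43980 had 450, 629 and 470 counts for sham, 353, 344 and 307 for injury and 648, 580 and 664 for CRC. Gm26759 had 319, 350 and 391 for sham, 254, 269 and 236 for injury and 537, 438 and 422 for CRC. In all 3 the injury libraries were lowest, and scaled levels of sham and CRC overlapped.

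The threshold cut through a continuum. Just inside it on the higher side lay Usp49, a deubiquitinase, at 1.31-fold and Gper1 at 1.31-fold, and just outside lay Fam219b and Hnrnph1, both at 1.29-fold. On the lower side 4932441J04Rik and Nol3, an inhibitor of apoptosis, were inside at 1.31-fold, and the matrix metalloproteinase gene Mmp19 and Zfp865 were outside at 1.29-fold. Mmp19 stood at 456, 758 and 685 CPM for sham, 391, 388 and 397 for injury and 573, 490 and 458 for CRC, so its injury libraries were also the lowest.

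The rule did not compare CRC with sham, but it used the levels of both groups. Both had to lie on one side of injury and at least 1.3-fold from its mean. The counts and shares of this contrast among members are therefore affected by the choice and carry no further weight. Of the 109 members, edgeR's quasi-likelihood test called 12 after Benjamini-Hochberg adjustment, against 20.0% of all features, and DESeq2 called 10, against 9.82% of the 5762 features to which it gave an adjusted p. Of the 43 higher in injury, 5 (11.6%) fell in CRC, against 12.0% of all features that fell. Of the 66 lower in injury, 7 (10.6%) rose in CRC, against 8.01% of all features that rose. Without sham 3 this count was 4, against 5.65% of all features, and without CRC 1 it was 4, against 4.72%. With library sizes from all records, 4 of the 43 fell, against 7.55% of all features, and 16 of the 66 rose, against 17.3%, so the shares depended on the scaling.

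Of the members that fell, Kctd18, of the KCTD family of adaptor proteins, held 425, 214 and 242 counts for sham, 446, 545 and 481 for injury and 84, 130 and 116 for CRC. CRC was below sham by -1.59 ± 0.20 on the log2 scale (SE) with an adjusted p of 5.83e-07 in edgeR's quasi-likelihood test, Benjamini-Hochberg adjusted. Cdc23 fell by 2.27 ± 0.22 (Benjamini-Hochberg adjusted p = 5.75e-09, edgeR's quasi-likelihood test), and all its CRC libraries were below all sham libraries. Dnm3os, a non-coding precursor of microRNAs that lies antisense to Dnm3, held 240, 161 and 240 counts for sham, 268, 366 and 281 for injury and 148, 147 and 121 for CRC, and it fell by 0.81 ± 0.18 (Benjamini-Hochberg adjusted p = 0.00146, edgeR's quasi-likelihood test). Gm16559, an antisense feature opposite the alcohol dehydrogenase gene Adh1, held 201, 122 and 181 counts for sham, 198, 327 and 302 for injury and 98, 127 and 120 for CRC, and fell by 0.73 ± 0.20 (Benjamini-Hochberg adjusted p = 0.00933, edgeR's quasi-likelihood test). That call was lost without CRC 1 (Benjamini-Hochberg adjusted p = 0.0683, edgeR's quasi-likelihood test, in a range of 0.000366 to 0.115 over 18 alternatives), with a log2 difference of -0.62.

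Hemk1, a methyltransferase of translation release factors, was nearly absent from the CRC libraries. It held 35, 19 and 35 counts for sham, 60, 52 and 41 for injury and 2, 1 and 0 for CRC. Per unit of library size, sham held 33.5-fold as many counts as CRC (95% exact Clopper-Pearson interval 11.1 to 165) and injury 57.8-fold (19.4 to 284), where the interval covers counting error only. The fall from sham to CRC had an adjusted p of 2.67e-07 in edgeR's quasi-likelihood test, Benjamini-Hochberg adjusted.

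Of the 7 members that rose in CRC against sham, Tnfsf18 rose 5.76-fold in mean CPM (Benjamini-Hochberg adjusted p = 2.18e-07, edgeR's quasi-likelihood test). Gm15943, an antisense feature opposite Klhl38 and the muscle ubiquitin ligase gene Fbxo32, held 15, 9 and 11 counts for sham, 3, 6 and 6 for injury and 112, 72 and 55 for CRC, and it rose by 2.57 ± 0.36 on the log2 scale (Benjamini-Hochberg adjusted p = 3.93e-06, edgeR's quasi-likelihood test). Actr8, a subunit of the INO80 chromatin remodeller, held 171, 112 and 161 counts for sham, 108, 74 and 103 for injury and 310, 463 and 469 for CRC, and its mean rose from 556 ± 93.2 to 1385 ± 305 CPM (SD, n = 3, Benjamini-Hochberg adjusted p = 7.39e-06, edgeR's quasi-likelihood test). In each of these the 3 groups were separate, with CRC highest and injury lowest. Gm37587, a processed transcript opposite the endoderm and endothelial factor gene Sox17, held 22, 23 and 24 counts for sham, 14, 17 and 14 for injury and 83, 60 and 66 for CRC, and rose by 1.40 ± 0.30 (Benjamini-Hochberg adjusted p = 0.000963, edgeR's quasi-likelihood test).

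The remaining calls were lost without some single libraries, where the differences kept their sign. Limk2 rose by 1.64 ± 0.51 (Benjamini-Hochberg adjusted p = 0.0216, edgeR's quasi-likelihood test), and the call was lost without sham 3 (0.0509), CRC 1 (0.130) or CRC 3 (0.0808), in a range of 0.00636 to 0.149 over 17 alternatives, with log2 differences of 1.66, 1.49 and 1.60. Atcay, which encodes caytaxin, held 12, 5 and 7 counts for sham, 5, 5 and 3 for injury and 32, 28 and 15 for CRC and rose by 1.45 ± 0.50 (Benjamini-Hochberg adjusted p = 0.0397, edgeR's quasi-likelihood test), which was lost without sham 2 (0.102), sham 3 (0.106), injury 1 (0.0509), CRC 1 (0.204) or CRC 2 (0.138), in a range of 0.0122 to 0.428, with log2 differences of 1.21, 1.36, 1.42, 1.25 and 1.37. Gm16185 held 395, 527 and 422 counts for sham, 361, 319 and 333 for injury and 752, 730 and 677 for CRC and rose by 0.48 ± 0.15 (Benjamini-Hochberg adjusted p = 0.0221, edgeR's quasi-likelihood test), which was lost without sham 1 (0.102), sham 3 (0.101), CRC 1 (0.0721) or CRC 2 (0.0655), in a range of 0.000335 to 0.102, with log2 differences of 0.33, 0.42, 0.46 and 0.48. The other 8 calls between CRC and sham, of Hemk1, Kctd18, Cdc23, Dnm3os, Gm15943, Tnfsf18, Actr8 and Gm37587, held with each single library left out.

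Features on the opposite strand of the members had no part in the rule. In the GENCODE M21 annotation, 84 features in the files had an exon across from an exon of a member, for 70 members. None was itself a member, 7 were at 0 counts throughout, and 39 were tested. Between injury and sham, 0 of the 39 were called by edgeR, with 1 at an unadjusted p under 0.05, beside 0.430% of all features, and DESeq2 called 0 of the 18 to which it gave an adjusted p. Between injury and CRC, edgeR called 4, all higher in injury, beside 12.9%, and DESeq2 4 of 45, beside 7.27%. Between CRC and sham edgeR called 5, beside 20.0%, and DESeq2 4 of 46, beside 9.82%. For the 17 tested features opposite members higher in injury the median log2 difference was 0.24 between injury and sham and -0.071 between injury and CRC, and 8 and 9 of them lay in the other direction than their member. For the 22 opposite members that were lower in injury the medians were 0.018 and -0.061, and 12 and 10 lay in the other direction.

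Exosc9, a subunit of the RNA exosome whose exons share 510 bases with those of Ccna2, held 30, 74 and 42 counts for sham, 61, 29 and 50 for injury and 5, 11 and 2 for CRC. Sham and injury overlapped, and CRC was far below both. It was higher in injury than in CRC by 3.12 ± 0.47 on the log2 scale (adjusted p = 1.88e-05, edgeR's quasi-likelihood test, Benjamini-Hochberg adjusted), while between injury and sham it differed by -0.083 (Benjamini-Hochberg adjusted p = 0.962, edgeR's quasi-likelihood test).

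Cdk4, the G1 cyclin-dependent kinase, ends tail to tail with Tspan31, which was lower in injury. Tspan31 held 25, 41 and 43 counts for sham, 18, 21 and 15 for injury and 27, 26 and 35 for CRC, and Cdk4 held 383, 234 and 266 for sham, 315, 290 and 323 for injury and 207, 201 and 158 for CRC. Cdk4 was similar in sham and injury and lowest in CRC, and it was higher in injury than in CRC by 0.91 ± 0.17 (Benjamini-Hochberg adjusted p = 0.000305, edgeR's quasi-likelihood test). Ntan1, an amidase of protein amino termini opposite Pdxdc1, held 1101, 947 and 789 counts for sham, 900, 984 and 895 for injury and 592, 587 and 608 for CRC, which was higher in injury than in CRC by 0.83 ± 0.13 (Benjamini-Hochberg adjusted p = 3.85e-05, edgeR's quasi-likelihood test). Pdxdc1 itself had 55, 43 and 62 counts for sham, 41, 35 and 23 for injury and 60, 67 and 69 for CRC, with injury the lowest group.

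Ap4m1, of the AP-4 adaptor complex, overlaps Taf6, a subunit of the general factor TFIID. Taf6 held 23, 29 and 28 counts for sham, 17, 15 and 16 for injury and 31, 34 and 44 for CRC, and Ap4m1 held 224, 147 and 159 for sham, 211, 163 and 206 for injury and 119, 143 and 169 for CRC. Ap4m1 was higher in injury than in CRC by 0.62 ± 0.18 (Benjamini-Hochberg adjusted p = 0.0213, edgeR's quasi-likelihood test), and the call was lost without injury 1 (0.0971), injury 3 (0.0945), CRC 1 (0.149) or CRC 2 (0.0711), in a range of 0.000741 to 0.149 over 18 alternatives. Kif20a, a mitotic kinesin opposite Cdc23, held 38, 31 and 70 counts for sham, 51, 50 and 64 for injury and 36, 46 and 52 for CRC. The counts of all groups overlapped, and after scaling only CRC and injury were apart, at 174 CPM or less and 190 CPM or more.

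By annotation the members were close to the other features of like depth. Of 105 members with an entry, 54.3% were protein coding and 22.9% antisense, beside 61.4% and 17.8% of 3171 annotated features with 90 or more counts. An exon on the opposite strand was present for 68.6% and 62.2%, and a tail-to-tail arrangement for 40.0% and 35.9%. The median total was 251 counts in members and 253 in all such features. Members lay on 18 chromosomes, and 2 pairs were within 100 kb. On chromosome 3, Gm38244 and Cept1, an enzyme of phospholipid synthesis, were 21391 bases apart and both higher in injury, and on chromosome 19 Gm19557, which was higher, lay 48580 bases from Sh3pxd2a, which was lower.

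Cell type markers gave little to compare with. Smooth muscle markers held counts in 8 of 8 genes, with a summed level of 428, 606 and 530 CPM for sham, 316, 361 and 344 for injury and 263, 255 and 341 for CRC, and Myh11 was the most abundant with 459 counts. Opposite 1 of them, Tagln, Gm48529 held 75024, 71298 and 70527 CPM for sham, 58021, 56615 and 57648 for injury and 31261, 29777 and 29476 for CRC, without overlap of the groups, and no annotated exon lies opposite an exon of Myh11. Epithelial markers held 45.2, 32.1 and 11.6 CPM for sham, 7.50, 19.0 and 15.3 for injury and 20.0, 16.8 and 10.0 for CRC, with Muc1 the most abundant at 27 counts and Cdh1 and Foxa2 at 0. Stromal markers were led by Pgr itself, with 619 of their counts, while Dcn and Lum held 4 each. Endothelial markers were led by Emcn with 48 counts, leukocyte markers by Csf1r with 496, while Ptprc and Adgre1 were at 0, and mesothelial markers by Lrrn4 with 18. All 3 neutrophil, all 4 erythroid and 3 of 4 adipocyte markers were at 0. The part of cell composition in the members' levels was not tested.

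The other gene lists held few members. Pgr was the only member among 8 steroid response genes, of which Greb1, Areg and Fst were at 0. None of the repair and fibrosis, inflammation, hedgehog and Klf9, cholesterol synthesis, nuclear RNA or immediate early genes was a member. In the first 3 of these lists and the last none passed edgeR's filter, the most abundant being Lox with 25 counts, Nfkbia with 3, Klf9 with 48 and Jun with 49. DESeq2 gave no gene of these 4 lists an adjusted p between injury and sham, so it could call none there. In each other contrast it gave an adjusted p to 2 hedgehog and Klf9 genes and 1 immediate early gene, and called 0. It gave none to the repair and fibrosis or inflammation genes. Between injury and sham 1 immediate early gene had an unadjusted p under 0.05 in DESeq2. Of 4 genes of cholesterol synthesis tested by edgeR, 0 were called between injury and sham and 0 between injury and CRC, with 2 at an unadjusted p under 0.05 in each, and DESeq2 called 0 of the 2 and 4 to which it gave an adjusted p. Of 3 tested nuclear RNAs edgeR called 0 in these contrasts, with 1 and 0 at that p, and DESeq2 called 0 of 1 and 3.

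Some listed genes, none a member, were called between CRC and sham by edgeR's quasi-likelihood test, and the values in brackets here are its Benjamini-Hochberg adjusted p. Myh11 was lower in CRC by -1.25 ± 0.30 (0.00298, with 0.000721 to 0.0460 over the alternatives) and Csf1r by -1.04 ± 0.26 (0.00430, with 0.00194 to 0.0651), and no single library left out changed either call. Cyp51 was higher in CRC by 1.08 ± 0.30 (0.00935, with 0.00133 to 0.168), and the call was lost without CRC 1 (0.0552). Nr2f2 was higher by 0.82 ± 0.25 (0.0190, with 0.00178 to 0.0940), and the call was lost without sham 1 (0.0582), sham 3 (0.0564), CRC 2 (0.0940) or CRC 3 (0.0532). Tsix was lower by -0.40 ± 0.12 (0.0133, with 0.000404 to 0.513), and the call was lost without sham 2 (0.0574) or CRC 3 (0.0942) and with library sizes from all records, where the difference was -0.11 (0.513). Padi2 was lower by -2.26 ± 0.68 (0.0168, with 0.00740 to 0.113), and the call was lost without sham 3 (0.0928) or CRC 3 (0.0780). Of the genes above DESeq2 did not call Nr2f2. Of 3 smooth muscle genes tested by edgeR, Myh11 alone was called between CRC and sham. DESeq2 called 1 of the 7 to which it gave an adjusted p. The other tested genes were Tagln, at 69.6, 104 and 89.0 CPM for sham and 46.7, 47.0 and 26.8 for CRC, and Lmod1. Lmod1 stood at 48.7, 56.1 and 42.6 CPM for sham and 40.0, 57.0 and 66.9 for CRC. Csf1r was the only leukocyte gene that edgeR tested. Between injury and CRC, edgeR called Padi2 higher in injury by 2.02 ± 0.69 (0.0494, with 0.0213 to 0.180) and DESeq2 did not. That call was kept in 4 of 16 alternatives and lost without sham 3 (0.0660), injury 1 (0.0744), injury 2 (0.0827), injury 3 (0.180), CRC 1 (0.0801), CRC 2 (0.0761) or CRC 3 (0.179).

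Promoters were available from RefSeq on GRCm38.p6 for 54 members, with 73 start sites of 300 bases each. On both strands, the GC box GGGCGG was found in 62.2% of 45 promoters of members lower in injury and in 35.7% of 28 promoters of members higher in injury, beside 55.7% of 2347 promoters of features with 90 or more counts and 35.7% of all 32851. The CACCC box, written CACCC, was in 66.7% and 64.3% of the same sets, beside 65.2% and 57.5%. The TATA box TATAAA was in 6.67% and 14.3%, beside 7.07% and 13.6%. The GLI motif GACCACCCA, which contains a CACCC box, was in 0 of the 73, beside 0.426% and 0.253%. Several promoters can belong to one gene, and a match is a stretch of letters and not a binding site.

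The promoters of 3 members described above are shown, with matches to any of the 4 motifs in capitals, 5′ to 3′ on the gene's strand. They lie at chr9:8899583-8899882 on the plus strand for Pgr, chr1:161494407-161494706 on the plus strand for Tnfsf18 and chr1:162217373-162217672 on the plus strand for Dnm3os, all on GRCm38.p6. Pgr has a GC box, a TATA box and CACCC boxes, Tnfsf18 a TATA box and a CACCC box, and Dnm3os a CACCC box alone.
Pgr: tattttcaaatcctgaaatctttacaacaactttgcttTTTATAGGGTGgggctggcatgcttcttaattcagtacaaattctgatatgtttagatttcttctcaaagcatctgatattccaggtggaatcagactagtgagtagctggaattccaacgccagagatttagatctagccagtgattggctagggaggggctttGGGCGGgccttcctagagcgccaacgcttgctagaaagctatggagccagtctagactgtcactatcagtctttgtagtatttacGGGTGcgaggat
Tnfsf18: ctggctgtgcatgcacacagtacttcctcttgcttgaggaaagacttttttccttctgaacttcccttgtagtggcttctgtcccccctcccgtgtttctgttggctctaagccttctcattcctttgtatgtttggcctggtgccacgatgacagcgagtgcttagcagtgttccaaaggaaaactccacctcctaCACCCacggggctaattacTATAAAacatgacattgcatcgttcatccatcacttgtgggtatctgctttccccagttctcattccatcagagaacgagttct
Dnm3os: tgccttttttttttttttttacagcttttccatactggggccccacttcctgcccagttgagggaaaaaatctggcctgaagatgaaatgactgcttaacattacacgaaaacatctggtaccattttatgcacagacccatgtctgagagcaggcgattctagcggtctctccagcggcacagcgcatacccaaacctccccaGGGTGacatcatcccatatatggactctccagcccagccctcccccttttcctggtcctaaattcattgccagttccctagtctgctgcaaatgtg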

How the data were processed

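RNA was sequenced from 9 uteri after removal of ribosomal RNA, as 150 base reads. The submitters' processing notes name HISAT2 2.1.0 and StringTie 2.1.1. The authors deposited an unnormalized count of reads for each of 55228 features per library, and 5 further entries for records outside features, which were left out of library sizes. Counts on features were 0.776% to 0.898% of a library's records.

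Groups and numbers came from the sample labels. Members were chosen with TMM-scaled CPM as described, and tests used edgeR 4.0.16 in R 4.3.3 (filterByExpr, TMM, robust quasi-likelihood fit of all 9 libraries without covariates), with Benjamini-Hochberg adjustment over 3722 features and DESeq2 1.42.0 as the alternative. The fit was also run on simulated data with 200 changed features, and the outcome is not reported here. Each replicate is 1 mouse. Positions and exon overlaps came from GENCODE M21, which names 53462 of the features, holding 98.4% of the counts.

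The members and lists were chosen with earlier results of these data known. Named members were the 10 with the largest fold and the 5 with the most counts in each direction, those on or opposite a listed gene, those next to the threshold, and opposite features called against injury. Others, among them Angpt2, Angptl2, Tnfsf18, Ackr4, Cdc23, Pds5a, Cenpo, Limk2, Sh3pxd2a, Hemk1, Atcay, Actr8, Gm37587, Kif20a, Tspan31, Pdxdc1, Taf6, AI480526, Adamts9, Cept1, Gm19557, Myh11, Csf1r, Cyp51, Nr2f2, Tsix, Padi2 and the promoters shown, were chosen after their values were seen. Alternatives were other scalings, filters, folds, tools and fits, a replicate block and the omission of each library.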

Additional observations from a re-analysis of the deposited data

How the results depend on the processing

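The number of members depended on the settings of the rule. Higher members numbered 73 with at least 45 counts, 27 with a 1.5-fold minimum and 99 without sham 2 and sham 3, which was chosen after seeing the data. Lower members numbered 41 with column sums alone, 39 with at least 180 counts and 135 without sham 2 and sham 3. With RLE size factors 42 of the 43 higher and all 66 lower members passed again, and with column sums alone 31 and 33. Leaving out 1 library gave 51 to 91 higher and 66 to 116 lower members. All runs with libraries left out used a lower minimum total count, and the rule is easier to meet with fewer libraries. Over 48 named members, 882 values of the ratio to the nearer mean kept the sign that the choice of members gave them, and 26 moved by over 1 SD.

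Between injury and sham, 6 features were called when those groups were fitted alone, 9 without sham 2 and sham 3, where the lone sham library was assumed to vary like the other groups, and 3 to 154 with 1 library left out. Between injury and CRC, 761 were called without sham 2 and sham 3. With library sizes from all records, members called between CRC and sham numbered 20, while all features called went from 745 to 924. That scaling moved the median log2 difference of all features to 0.32 between CRC and sham and to -0.21 between injury and CRC, and the share of calls that were higher from 40.0% to 69.6% and from 60.5% to 36.1%. Between injury and sham it went from 62.5% to 82.4%. Ap4m1, Gm16559, Tsix and, between injury and CRC, Padi2 lost their calls there. Of the members and opposite features followed, Limk2, Atcay and Adamts9 lost theirs with DESeq2, without a filter also Gm16185, and with the groups fitted alone Gm16185.

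With the replicate block, 5 features were called between injury and sham, and Atcay between CRC and sham and Padi2 between injury and CRC lost their calls, while the other calls followed were kept. Same-numbered libraries correlated at -0.10 to 0.08 in 9 pairs, and other libraries of different groups at -0.07 to 0.11 in 18 pairs. With 3 libraries in each group, these values cannot decide whether the numbers paired the mice.

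Differences that were not called changed sign in places. Pgr between CRC and sham was 0.21 with all records and 0.13 without sham 2 and sham 3. Between injury and sham, Ntan1 was 0.023 with the upper quartile, 0.069 with all records, 0.045 without a filter and 0.0088 with at least 10 counts in every library. Exosc9 was 0.031 with all records, 0.0030 without a filter, 0.019 with the replicate block and 0.73 without sham 2 and sham 3, where Cdk4 was -0.21 and Ap4m1 -0.11. With 1 library left out the ranges were -0.22 to 0.067 for Pgr, -0.13 to 0.041 for Ntan1, -0.026 to 0.26 for Cdk4 and -0.37 to 0.40 for Exosc9. The causes were not tested. Hemk1, Gm15943, Tnfsf18, Limk2, Atcay, Exosc9 and Adamts9 had no value with at least 10 counts in every library. Counts limit the precision, since 37.6% of members had under 180 counts in all.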

Other observations

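Among features opposite the members, edgeR called AI480526 and Adamts9 between CRC and sham alone. AI480526, opposite the lincRNA member Gm38102, held 34, 30 and 32 counts for sham, 19, 38 and 19 for injury and 11, 18 and 13 for CRC, with CRC lower than sham by -1.38 ± 0.38 on the log2 scale (Benjamini-Hochberg adjusted p = 0.00939, edgeR's quasi-likelihood test). DESeq2 called it too (0.0405), and edgeR's call was lost without CRC 1 (adjusted p 0.0594, in a range of 0.00545 to 0.0594 over 18 alternatives). Adamts9, a secreted metalloproteinase gene opposite A730049H05Rik, held 3, 0 and 2 counts for sham, 3, 2 and 6 for injury and 13, 11 and 13 for CRC, and CRC was higher than sham by 2.62 ± 0.89 (Benjamini-Hochberg adjusted p = 0.0359, edgeR's quasi-likelihood test). DESeq2 did not call it (0.0803), and edgeR's call was lost without sham 2 (0.102), sham 3 (0.0846), injury 1 (0.0576), injury 3 (0.0554), CRC 1 (0.136), CRC 2 (0.103) or CRC 3 (0.125), in a range of 0.0171 to 0.304 over 17 alternatives. Its CRC libraries were the only ones with more than 6 counts.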
